A study of Homo sapiens with 14 samples.

Results

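The genes described here encode the members of the nuclear receptor family other than the progesterone receptor and oestrogen receptor alpha themselves: 44 genes among the 19821 protein-coding genes of the RefSeq annotation on chromosomes 1 to 22 and X. They were taken by name as members of the gene family. For each gene the peak lists of a chromatin immunoprecipitation sequencing (ChIP-seq) study were read over the RefSeq gene span and the 10 kb on either side, a stretch called the gene's window here. A listed region counted for a gene when it overlapped the window by at least 1 bp, so neighbouring genes can share regions. Regions are called at a start, or at an end of a span, when any part came within 1 kb of it.

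The study was done in T47D, a human breast cancer line positive for oestrogen and progesterone receptors, grown in a serum-containing medium with insulin. Cells received the ethanol vehicle or progesterone (P4) for 1 h, at a dose that the labels do not give. Sonicated chromatin was precipitated with an antibody to the progesterone receptor (PR) or to POLR3A, which is the large catalytic subunit of RNA polymerase III. Each antibody and treatment had 3 replicate libraries, and each treatment had 1 pooled input library, 14 libraries in all. A single peak list stood for each of the 4 groups, so no value per replicate was read and no difference between lists could be set against the spread between replicates. All values come from 1 cell line, the lists hold no expression values, and the T47D label could not be checked against marker genes.

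Nuclear receptors are transcription factors that share a zinc-finger DNA-binding domain and a ligand-binding domain. Hormones, vitamins, bile acids, fatty acids and other small molecules regulate many of them, while the orphan members have no established ligand. In breast epithelium, steroid hormone receptors act beside receptors for retinoic acid, vitamin D and thyroid hormone, several of which bind DNA as heterodimers with a retinoid X receptor. RNA polymerase III makes transfer RNA and other short RNAs, and the receptor genes are transcribed by RNA polymerase II.

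PR and POLR3A regions were listed at most receptor genes under both treatments. At least 1 PR region lay in the window of 31 of the 44 genes under vehicle (70.5%, against 55.8% of all protein-coding genes) and of 39 under P4 (88.6%, against 80.1%). POLR3A regions lay in 31 windows under vehicle (70.5%, against 53.2%) and in 36 under P4 (81.8%, against 58.3%). The P4 counts were lower when each P4 list was shortened by −log10 q to the length of its vehicle list. PR regions then lay at 32 receptor genes under P4 (58.4% of coding genes), 31 being the vehicle count, and POLR3A regions at 28 (47.4%), fewer than the 31 under vehicle. With only regions at a −log10 q of at least 5, POLR3A was listed at 9 of the 44 genes under vehicle and 16 under P4. Of coding genes, 21.1% and 21.3% then had one, so the receptor share under vehicle was near that of coding genes. The vitamin D, retinoid X alpha, oestrogen-related alpha and germ cell nuclear factor genes (VDR, RXRA, ESRRA and NR6A1) held the highest-ranking PR regions of the family under P4. All 4 lists had a region at 25 of the genes (56.8%, against 37.4%), and NR2E1, NR4A3 and NR0B1 had none in any list (6.82%, against 16.5%).

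**Figure D1:**
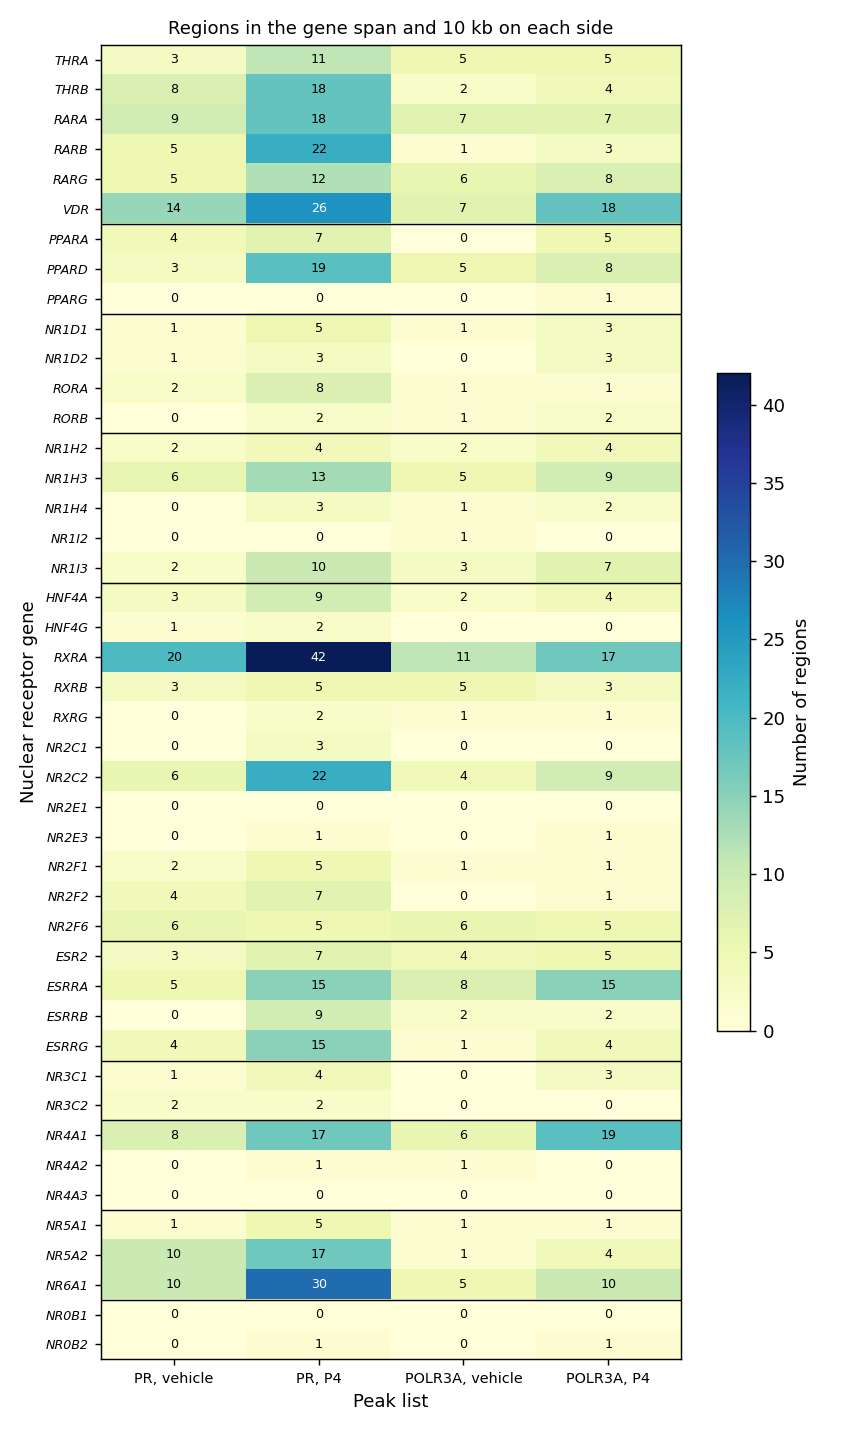
Number of listed regions in the window (gene span and 10 kb on each side) of each of the 44 nuclear receptor genes (rows, grouped by subfamily with black lines) in the 4 peak lists (columns), with the count printed in each cell and shown by colour. RXRA held the most PR regions, with 20 for vehicle and 42 for P4, and NR2E1, NR4A3 and NR0B1 held none in any list.

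The lists themselves differed in length. On the chromosomes analysed the vehicle and P4 lists held 38933 and 111515 regions for PR, and 29161 and 47904 for POLR3A. The files give no read counts, so the depth behind each list is unknown, and the part of depth in these lengths was not tested. Each region carries the authors' own fold enrichment and −log10 q-value, which serve here only to rank regions within their list. Values of one gene from several lists stand side by side as 4 descriptions, and a higher value in a longer list is not read as a change.

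Over all windows together, 6.26 Mb of sequence, the receptor genes held 152 vehicle and 399 P4 regions for PR, and 106 and 193 for POLR3A. Per 100 kb of window this was 2.43 and 6.37 PR regions, where the windows of all protein-coding genes held 1.66 and 5.19. The POLR3A densities were 1.69 and 3.08 per 100 kb, against 1.32 and 2.21. The number of PR regions under P4 was 2.62 times that under vehicle in the receptor windows, 3.13 times in all coding windows and 2.86 times over the whole list. For POLR3A these ratios were 1.82, 1.67 and 1.64. The receptor windows were thus denser in regions in all 4 lists, while their ratio between treatments lay below that of coding windows for PR and above it for POLR3A. At equal list length the receptor windows held 138 PR regions under P4, fewer than the 152 under vehicle, and 112 POLR3A regions.

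More PR regions were listed under P4 than under vehicle at 37 receptor genes (84.1%, against 74.0% of coding genes), fewer at 1, NR2F6 (2.27%, against 1.62%), and as many at 6 (13.6%, against 24.4%). These counts are from lists of unequal length. With the PR P4 list at the length of the vehicle list, 12 receptor genes had more regions under P4 and 13 had fewer, where 26.6% and 23.9% of coding genes did. For POLR3A, 27 genes had more regions under P4 (61.4%, against 39.6%), 4 had fewer (9.09%, against 15.2%) and 13 had as many (29.5%, against 45.2%). At equal list length 14 genes had more POLR3A regions and 13 had fewer, where 21.2% and 27.4% of coding genes did. With lists of 1 length, the receptor genes with more and with fewer regions under P4 were thus nearly equal in number for both antibodies.

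**Figure D2:**
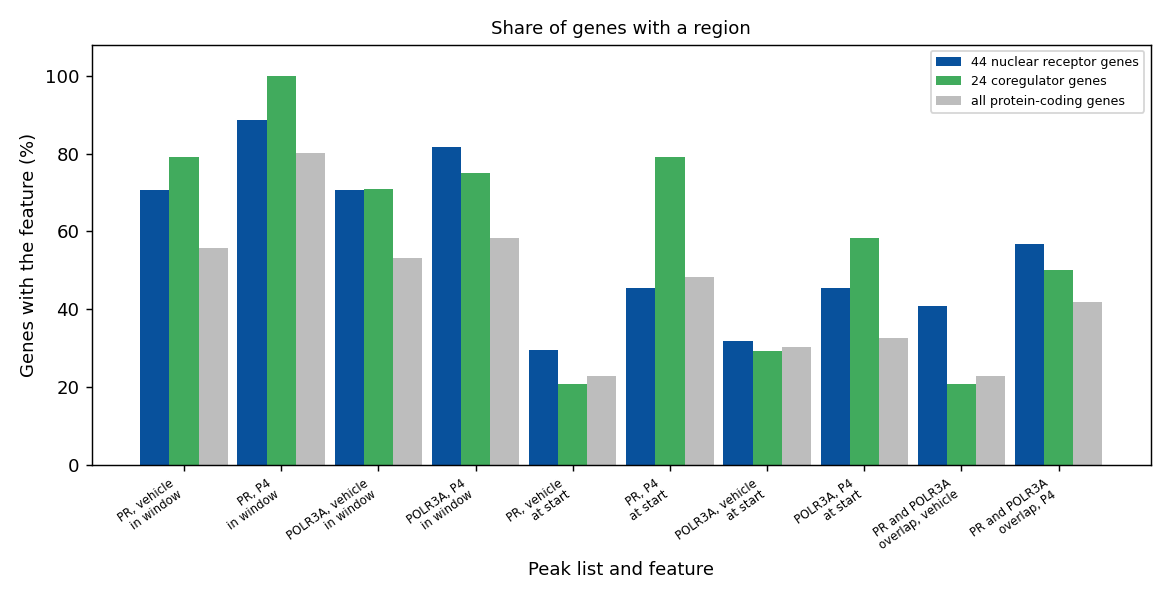
Share of genes (y axis, percent, from 0) with a region in the window, with a region at a start site, or with overlapping PR and POLR3A regions (x axis, by peak list), for the 44 nuclear receptor genes (blue), 24 coregulator genes (green) and all 19821 protein-coding genes (grey). The blue bars stand above the grey ones for every window count, as for POLR3A under P4 at 81.8% against 58.3%, but at start sites PR under P4 is at 45.5% for receptor genes and 48.2% for all genes.

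Among the receptors for thyroid hormone, retinoic acid and vitamin D, all 6 genes had regions in every list, and the gene of the vitamin D receptor stood out by rank. VDR, whose product binds the active form of vitamin D, spans 63.5 kb of chromosome 12 and held 14 vehicle and 26 P4 regions for PR, with 7 and 18 for POLR3A. Its strongest PR region lay inside the gene span in both lists, at chr12:47878264-47878769 under vehicle (−log10 q 214, fold enrichment 28.3) and at chr12:47878176-47878733 under P4 (−log10 q 338, fold 44.2). The summits of these regions fell on the same base, 47878475. Towards the upper end of the span, a further PR region reached 71.7 (vehicle) and 298 (P4) on the same scale. The same end carried the strongest POLR3A region of the gene in both lists, at −log10 q 6.88 in the vehicle list and 13.4 in the P4 list, the latter the highest POLR3A value at any receptor gene under P4.

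The thyroid hormone receptor genes differed in how far their PR regions ranked. THRB, the beta receptor gene, held 8 and 18 PR regions under vehicle and P4, and the strongest reached −log10 q 60.4 and 154. THRA, the alpha receptor gene, held 3 and 11, with maxima of 4.13 and 29.6. Its window shares 1 PR region under vehicle and 5 under P4 with that of NR1D1, the neighbouring gene. POLR3A regions at THRB numbered 2 and 4, the strongest at −log10 q 5.47 and 6.34, and 1 in each list lay at a start site, at 5.47 and 3.17. At THRA there were 5 POLR3A regions under each treatment and none at the start.

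RARB, which encodes the beta receptor for retinoic acid, is among the longest genes of the family at 769 kb and held 5 and 22 PR regions in the vehicle and P4 lists. A pair of its regions ranked nearly alike under P4, at −log10 q 197.0 and 196.8, one 80632 bp before the nearest listed start and the other 23279 bp past one. Both had a vehicle region at the same place, at −log10 q 35.2 and 55.0. POLR3A was sparse there, with 1 and 3 regions and maxima of 2.38 and 3.72. RARA, the alpha receptor gene, showed the other pattern, with 9 and 18 PR regions (maxima 26.0 and 53.9) and 7 POLR3A regions under each treatment (maxima 3.05 and 7.09), of which 1 under vehicle and 3 under P4, those maxima among them, lay at a start. RARG, the gamma receptor gene, held 5 and 12 PR regions, none above a −log10 q of 13.8, and 6 and 8 POLR3A regions, 2 of them at the start in each list at up to 4.49 and 4.35.

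The RARA promoter is shown because a POLR3A summit of the P4 list lay in it, 188 bp before the start, and because it holds AGGTCA, the core motif that many nuclear receptors bind, whose first base is 230 bp before the start. The region of this summit reached only −log10 q 2.66, and the one at 7.09 lay at another RARA start. It covers chr17:40308930-40309179 on the plus strand, from RefSeq's promoter table for GRCh38.p14, and runs from 250 bp before the start to the base before it. Capitals mark the 21 bases centred on the summit.
RARA: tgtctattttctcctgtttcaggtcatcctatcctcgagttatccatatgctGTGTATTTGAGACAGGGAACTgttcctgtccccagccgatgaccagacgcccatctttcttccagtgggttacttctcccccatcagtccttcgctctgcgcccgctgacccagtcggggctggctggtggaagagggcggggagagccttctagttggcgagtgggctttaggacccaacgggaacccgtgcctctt

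The fatty acid sensing PPAR genes ranged from none to many regions. PPARD, the delta receptor gene, held 3 and 19 PR regions under vehicle and P4, with maxima of 15.9 and 44.4, and 5 and 8 POLR3A regions. At its start a PR region was listed in both treatments, at −log10 q 5.18 and 9.55, and a POLR3A region under P4, at 5.71, with all 3 summits between 222 and 273 bp before the start. PPARA, a regulator of fatty acid oxidation, held 4 and 7 PR regions with maxima of 28.8 and 71.0, no POLR3A region under vehicle and 5 under P4, the strongest at 6.29. PPARG, the regulator of fat cell differentiation, had no PR region in either list, no POLR3A region under vehicle and 1 under P4, at −log10 q 2.69.

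The genes of the circadian repressors REV-ERB and of the related ROR activators held few regions. NR1D1, for REV-ERB alpha, held 1 and 5 PR regions and 1 and 3 POLR3A regions. Each of the 4 lists had 1 at its start, at −log10 q 4.13 and 2.19 for PR and 4.71 and 2.84 for POLR3A, under vehicle and P4. NR1D2, for REV-ERB beta, had 1 PR region under vehicle (−log10 q 13.0) and 3 under P4 (maximum 7.85). It had no POLR3A region under vehicle and 3 under P4 (maximum 4.17), and under P4 regions of both antibodies at its start overlapped.

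RORA, although 741 kb long, held 2 and 8 PR regions with maxima of 7.92 and 15.7. Its single POLR3A region in each list lay nearer another gene, as the assignment to the nearest gene left it 0 in both. RORB had no PR region under vehicle and 2 under P4, the strongest at −log10 q 37.4, fold 10.5, and 1 and 2 POLR3A regions at up to 2.18 and 2.89. It was 1 of 2 genes, with ESRRB, that still had PR regions under P4 alone at equal list length, where 11.0% of coding genes did.

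Among the sensors of oxysterols, bile acids and foreign compounds, NR1H3 held the highest-ranking POLR3A region of the family under vehicle. NR1H3, for liver X receptor alpha, carried POLR3A at its start at −log10 q 22.2, fold 8.04, under vehicle and 10.7, fold 5.35, under P4, with summits 5 and 19 bp from the listed start. The start of the divergent neighbour ACP2 lay 86 and 62 bp from these summits, so the lists do not tell the 2 starts apart. PR regions overlapped there, at −log10 q 6.95 and 46.4, with summits 597 and 585 bp inside the gene. The window held 6 and 13 PR regions and 5 and 9 POLR3A regions, of which 2 and 4 of each antibody had NR1H3 as the nearest gene.

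The stretch between the ACP2 and NR1H3 starts is shown because it holds the POLR3A summit of the P4 list. It covers chr11:47248815-47248894 on the plus strand, from RefSeq's GRCh38.p14 table, the 80 bases before the NR1H3 start, and the capitals mark the 21 bases centred on that summit, 19 bp before the start.
NR1H3: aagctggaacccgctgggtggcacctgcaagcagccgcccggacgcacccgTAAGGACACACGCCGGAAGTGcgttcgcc

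NR1I3, for the constitutive androstane receptor, held 2 and 10 PR regions with maxima of 3.71 and 19.8. Its strongest POLR3A region lay near the TOMM40L start under vehicle, at −log10 q 8.76, and inside NR1I3 under P4, at 10.1, where a PR region overlapped it. NR1H2, for liver X receptor beta, had 2 and 4 PR regions and 2 and 4 POLR3A regions. Its strongest PR region under P4, at 20.5, lay in POLD1, and no PR region under P4 had NR1H2 as the nearest gene. At its start, POLR3A was listed at −log10 q 2.18 under vehicle and 2.15 under P4.

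NR1H4 and NR1I2, the bile acid and pregnane receptor genes, had no region for which they were the nearest gene. In the NR1H4 window lay no PR region under vehicle, 3 under P4 (maximum 3.55), 1 POLR3A region under vehicle (3.53) and 2 under P4 (maximum 5.63). NR1I2 had a single region in all 4 lists together, for POLR3A under vehicle at −log10 q 2.31.

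The retinoid X receptors are the common heterodimer partners of the family, and RXRA held more regions than any other receptor gene in 3 of the 4 lists. It held 20 and 42 PR regions and 11 and 17 POLR3A regions, with NR4A1 and VDR above it in the POLR3A P4 list at 19 and 18. Its strongest PR region under P4 lay at chr9:134378701-134379405, at −log10 q 304 and fold 41.8, the summit 342 bp before an internal start at 134379295. The vehicle region at that place reached 76.1, below the vehicle maximum of 83.6 4093 bp before the same start, where the P4 list gave 187. A POLR3A region under P4 overlapped the internal start region, at −log10 q 5.47 with its summit 104 bp before the start, and no vehicle POLR3A region did.

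The 250 bases before the internal RXRA start are shown because the highest-ranking start-site PR region of the family and a POLR3A summit cover them. They lie at chr9:134379045-134379294 on the plus strand (RefSeq, GRCh38.p14), and the capitals mark the 21 bases centred on the POLR3A summit of the P4 list.
RXRA: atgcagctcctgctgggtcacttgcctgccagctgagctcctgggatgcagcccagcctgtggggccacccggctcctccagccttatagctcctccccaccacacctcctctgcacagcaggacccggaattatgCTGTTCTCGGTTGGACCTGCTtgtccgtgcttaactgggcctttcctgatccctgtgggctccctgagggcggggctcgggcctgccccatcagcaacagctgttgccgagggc

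RXRB showed 3 and 5 PR regions, of which a region at its start reached −log10 q 12.5 under vehicle and 65.5 under P4. The P4 summit lay 26 bp from the RXRB start and inside the neighbour SLC39A7 as annotated, so the genes share it. POLR3A regions at RXRB numbered 5 under vehicle and 3 under P4, and those at its starts reached −log10 q 3.20 and 2.37. RXRG, the gamma receptor gene, had no PR region under vehicle, 2 under P4 (maximum 5.64) and 1 POLR3A region in each list (3.48 and 3.25).

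Of the hepatocyte nuclear factor genes, HNF4A carried the second-ranking POLR3A region of the family under vehicle. That region reached −log10 q 12.8 under vehicle and 5.16 under P4, 3725 and 3762 bp past a start, and a PR region overlapped it in both treatments, at 9.32 and 6.20. HNF4A held 3 and 9 PR regions in all, with none above 9.32. At equal list length it was the only receptor gene that had PR regions under vehicle but none under P4, where 8.43% of coding genes did. HNF4G held 1 and 2 PR regions, with −log10 q maxima of 17.8 and 70.6, and no POLR3A region.

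Of the testicular receptor genes, NR2C2 held 6 and 22 PR regions with maxima of 44.7 and 190.4, and 4 and 9 POLR3A regions with maxima of 3.64 and 5.38. At its start all 4 lists had regions, at up to −log10 q 4.09 and 4.62 for PR and 3.34 and 3.04 for POLR3A. NR2C1 had no region under vehicle with either antibody and 3 PR regions under P4, the strongest at −log10 q 4.68. A P4 summit at 4.15 lay 73 bp before its start.

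The NR2C1 promoter is shown as that of a gene with a start-site PR region in the P4 list and no vehicle region in its window. It covers chr12:95073619-95073868 and is written along the minus strand (RefSeq, GRCh38.p14), with the 21 bases centred on the PR summit in capitals.
NR2C1: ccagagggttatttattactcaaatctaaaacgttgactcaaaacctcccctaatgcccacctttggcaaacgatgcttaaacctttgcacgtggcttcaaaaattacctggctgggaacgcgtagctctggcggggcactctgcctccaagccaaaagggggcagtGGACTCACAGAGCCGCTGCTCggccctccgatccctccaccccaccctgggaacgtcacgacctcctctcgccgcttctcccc

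The COUP-TF genes, for orphan receptors of organ and vessel development, differed among themselves. NR2F2 held 4 and 7 PR regions, and the strongest lay 2542 and 2547 bp past a start at −log10 q 91.2 (fold 21.2) under vehicle and 239.9 (fold 39.9) under P4. Under P4 a second PR region 3316 bp past it reached 98.4, and a weak one at the start reached 5.93. POLR3A had no region there under vehicle and 1 under P4, at 2.00. NR2F1 held 2 and 5 PR regions, the strongest 10491 and 10457 bp from its start at 13.0 and 25.6. It had 1 POLR3A region in each list, at 4.71 and 4.31, the latter coming within 1 kb of a start without covering it. NR2F6 held 6 and 5 PR regions, with maxima of 4.24 and 34.2, the latter outside its span on the side of USHBP1, and 6 and 5 POLR3A regions up to 3.60 and 3.72. At an end of the NR2F6 span, POLR3A was listed at 3.60 and 2.21.

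NR2E3, the photoreceptor-specific receptor gene, had no vehicle region and under P4 1 PR region at −log10 q 3.36 and 1 POLR3A region at 1.80. NR2E1, which acts in neural stem cells, had no region in any list.

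The genes of the oestrogen-related receptors, regulators of mitochondrial genes, held the highest PR value of the whole family. ESRRA, an 11.2 kb gene on chromosome 11, held a PR region at chr11:64310840-64311884 under vehicle (−log10 q 224, fold 30.4) and at chr11:64310228-64311914 under P4 (−log10 q 356, fold 43.0), 5719 and 5700 bp past its start. POLR3A regions overlapped it in both treatments, at −log10 q 6.23 and 6.34, and the window held 5 and 15 PR and 8 and 15 POLR3A regions. Of these, 2 and 9 PR regions and 4 and 9 POLR3A regions had ESRRA as the nearest gene. At the ESRRA start, no PR region was listed under vehicle and 3 under P4, the strongest at 27.0 with its summit 72 bp from the start. POLR3A regions came within 1 kb of that start at −log10 q 4.29 under vehicle and at up to 6.54 under P4.

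ESRRG, the gamma gene, held 4 and 15 PR regions with maxima of 75.9 and 244, and 1 and 4 POLR3A regions with maxima of 3.01 and 5.78. ESRRB, the beta gene, had no PR region under vehicle and 9 under P4. The strongest of these, at −log10 q 69.6 and fold 14.8, lay 82413 bp from the nearest start. The 2 POLR3A regions of each list reached 2.93 and 1.94, the latter at a start. ESR2, for oestrogen receptor beta, held 3 and 7 PR regions (maxima 9.58 and 25.9) and 4 and 5 POLR3A regions (maxima 4.67 and 4.87). At its starts PR reached 4.33 and 16.5 and POLR3A 4.67 and 3.77.

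The ESRRG promoter is shown because a PR summit of the P4 list (−log10 q 4.05) lay 54 bp before this start and the window holds AGGTCA on the opposite strand, written here as tgacct, its first base 234 bp before the start. It covers chr1:217078288-217078537 and is written along the minus strand (RefSeq, GRCh38.p14), with the 21 bases centred on the summit in capitals.
ESRRG: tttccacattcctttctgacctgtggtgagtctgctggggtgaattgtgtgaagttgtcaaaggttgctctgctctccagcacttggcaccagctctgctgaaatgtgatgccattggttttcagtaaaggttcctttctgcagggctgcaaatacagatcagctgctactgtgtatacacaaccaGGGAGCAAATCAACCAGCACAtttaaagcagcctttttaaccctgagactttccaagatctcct

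The glucocorticoid and mineralocorticoid receptors are close relatives of PR and can bind the same response element. Their genes held few regions, and those of NR3C2 ranked high. NR3C2, for the mineralocorticoid receptor, held 2 PR regions in each list and no POLR3A region in either. One lay at chr4:148268814-148269329 under vehicle, with −log10 q 135 there and 172 under P4. The other lay at chr4:148305817-148306216 under vehicle, with −log10 q 74.4 there and 179 under P4. Both were inside the gene span, 173357 and 136386 bp from the nearest listed start, and they alone made up the listed binding at this 367 kb gene. NR3C1, for the glucocorticoid receptor, held 1 and 4 PR regions with maxima of 8.71 and 18.3. It had no POLR3A region under vehicle and 3 under P4, the strongest at 4.94, and 1 of them, at 2.28, came within 1 kb of a start. At neither gene did a PR and a POLR3A region overlap.

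The NR4A genes are immediate early genes that respond to many stimuli, and only NR4A1 among them held more than 1 region of an antibody. NR4A1 held 8 and 17 PR regions under vehicle and P4, and the strongest lay at the same place, 5102 and 5118 bp before an internal start, at −log10 q 20.2 (fold 5.66) and 204 (fold 29.4). Its place in the list was the 81.8th percentile under vehicle and the 98.4th under P4. POLR3A regions numbered 6 and 19, the most of any receptor gene under P4, but none exceeded a −log10 q of 6.83, and the 1 at a start, under P4, reached 2.58. NR4A2 had 1 PR region, under P4 (4.59), and 1 POLR3A region, under vehicle (2.38), at an end of its span. NR4A3 had no region.

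Of the last groups, NR6A1, for germ cell nuclear factor, and NR5A2, for liver receptor homologue, held many PR regions. NR6A1 held 10 and 30, the strongest 37041 and 37029 bp past its start at −log10 q 140 (fold 25.4) under vehicle and 262 (fold 39.0) under P4, and under P4 a POLR3A region overlapped it at 5.25. It had 5 and 10 POLR3A regions, with 1 at the start in each list at 1.48 and 4.24. NR5A2 held 10 and 17 PR regions with maxima of 32.8 and 120.2, and 1 and 4 POLR3A regions. NR5A1, for the steroidogenic factor, lies beside NR6A1 and shares 1 and 3 PR regions with its window. It held 1 and 5 PR regions (maxima 6.60 and 30.9) and 1 POLR3A region in each list (3.14 and 2.80).

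NR0B1 and NR0B2 encode receptors without a DNA-binding domain. NR0B1 had no region, and NR0B2 had 1 PR region (2.10) and 1 POLR3A region (1.37), both under P4 and both nearer to another gene.

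**Figure D3:**
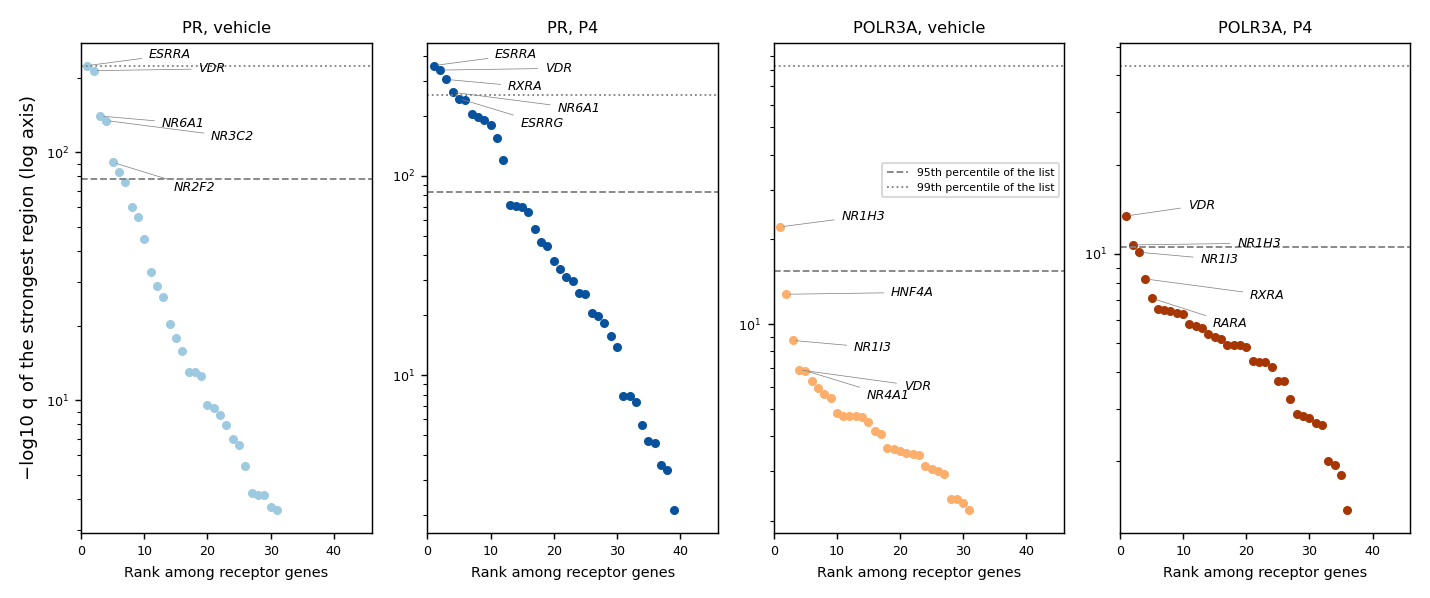
The −log10 q of the strongest region in each nuclear receptor gene's window (y axis, log scale, 1 point per gene with a region) against the gene's rank (x axis) in each of the 4 peak lists, with the 5 highest genes named and the 95th (dashed) and 99th (dotted) percentiles of all regions of the list as lines. Under P4, 12 genes lie above the 95th percentile of the PR list at 83.1, and 2, VDR and NR1H3, above that of the POLR3A list at 10.5.

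Placed within the whole lists, a few PR regions at receptor genes reached the first 1%, and no POLR3A region did. Counted by region, the PR ranks under P4 were near those in coding windows. Of the receptor regions, 1.25% lay in the first 1% (against 1.07%) and 5.01% between 1% and 5% (against 4.12%). The median −log10 q for PR was 4.77 under vehicle (against 5.26) and 5.12 under P4 (against 4.68). A region in the top 5% of its list was found at 6 genes for PR under vehicle (13.6%, against 6.35% of coding genes), namely VDR, RXRA, NR2F2, ESRRA, NR3C2 and NR6A1. Under P4 there were 12 (27.3%, against 16.3%), the same 6 together with THRB, RARB, NR2C2, ESRRG, NR4A1 and NR5A2. For POLR3A there were 1 under vehicle (2.27%, against 2.37%) and 2 under P4 (4.55%, against 3.80%), shares close to those of all coding genes. The 99th percentile of the POLR3A lists lay at −log10 q 83.0 and 43.1, above every region in a receptor window, where the highest were 22.2 and 13.4.

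Long genes have larger windows, so the shares were also read by gene length. Of the 12 genes with a top PR region under P4, 8 were among the 15 longer than 100 kb (53.3%, against 29.7% of coding genes of that length) and none was among the 8 shorter than 10 kb (against 9.11%). From 10 to 30 kb it was 2 of 8 (25.0%, against 12.9%), and from 30 to 100 kb 2 of 13 (15.4%, against 18.8%). Across the 44 genes the Spearman correlation of window length with the number of regions was 0.23 and 0.34 for PR under vehicle and P4 and −0.03 and 0.09 for POLR3A, as a description over genes that share the same lists. The share of receptor genes with a PR region under vehicle was 4 of 8 for genes under 10 kb (against 43.5% of coding genes of that length), 87.5% from 10 to 30 kb (against 54.6%), 61.5% from 30 to 100 kb (against 61.0%) and 12 of 15 over 100 kb (against 69.5%). Under P4 the shares in the same order were 87.5% (67.1%), 87.5% (82.0%), 84.6% (86.2%) and 93.3% (88.6%). The widest gaps to coding genes were thus from 10 to 30 kb under vehicle and under 10 kb under P4, each in a class of 8 genes. In the other classes the receptor shares were nearer to those of coding genes. Classes of 8 to 15 genes are too small to read a direction from such gaps.

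The regions under P4 were split by rank to see which had a vehicle region at the same place. Of the PR regions under P4, all 5 that ranked in the first 1%, in 4 genes, and all 20 between 1% and 5% overlapped a PR region under vehicle, as did 100% and 99.9% of such regions in all coding windows. Between 5% and 20% it was 40 of 57 (70.2%, against 66.3%), and between 20% and 50% it was 31 of 124 (25.0%, against 19.6%). Below the first 50% it was 20 of 193 (10.4%, against 7.10%). Over all ranks 116 of 399 PR regions under P4 (29.1%, against 24.1% in coding windows) overlapped a vehicle region. Of the vehicle regions, 120 of 152 (78.9%, against 77.2%) overlapped one under P4, a share near that of coding windows. The share of regions listed under P4 alone thus rose as rank fell, at receptor genes as at all coding genes, and at receptor genes none lay in the first 5%. Some still ranked high, as at ESRRB and RORB, at percentiles 94.1 and 89.6 of the PR list under P4.

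A PR region was listed under P4 alone at 8 receptor genes (18.2%, against 25.0%): RORB, NR1H4, RXRG, NR2C1, NR2E3, ESRRB, NR4A2 and NR0B2. No gene had one under vehicle alone (against 0.757%). For POLR3A, 7 genes had a region under P4 alone (15.9%, against 12.9%), namely PPARA, PPARG, NR1D2, NR2E3, NR2F2, NR3C1 and NR0B2, and 2 under vehicle alone (4.55%, against 7.84%), NR1I2 and NR4A2. With lists of equal length the PR count came to 2 genes, RORB and ESRRB, against 11.0% of coding genes. The POLR3A counts then came to 3 under P4 alone, PPARA, NR1D2 and NR3C1, and 6 under vehicle alone, NR1H2, NR1I2, ESRRB, NR4A2, NR5A1 and NR5A2, against 8.16% and 13.9%.

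**Figure D4:**
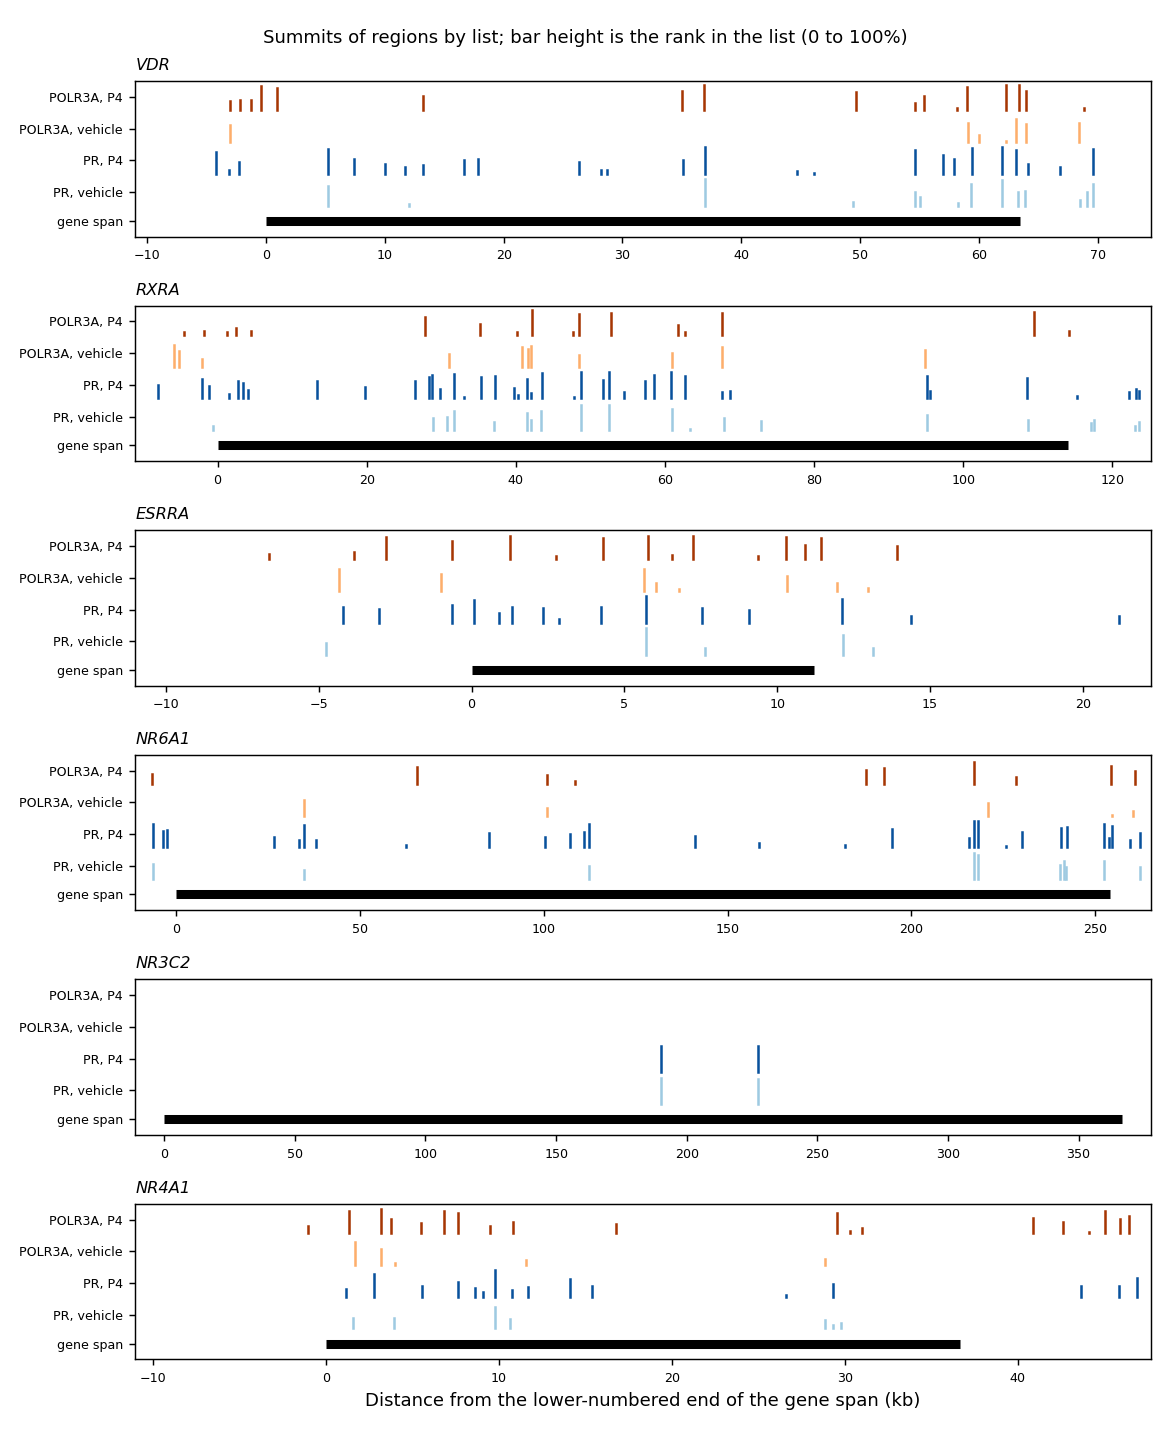
Summits of the listed regions at VDR, RXRA, ESRRA, NR6A1, NR3C2 and NR4A1 (x axis, kb from the lower-numbered end of the gene span), 1 row per peak list, with bar height giving the region's percentile within its list and the black bar the gene span. The strongest PR summits recur at the same place under vehicle and P4, and NR3C2 holds 2 PR summits in each list and no POLR3A summit.

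PR and POLR3A regions lay on top of each other at many receptor genes. Overlapping regions of both antibodies were found in the windows of 18 genes under vehicle (40.9%, against 22.9% of coding genes) and of 25 under P4 (56.8%, against 41.9%). At equal list length the P4 count was 16 (18.9% of coding genes), below the vehicle count. Of the POLR3A regions in receptor windows under vehicle, 44 of 106 overlapped a PR region (41.5%, against 27.4% in coding windows). Under P4 it was 96 of 193 (49.7%, against 49.6%). Under P4 the share in receptor windows was thus close to that in coding windows. At a −log10 q of at least 10, 0 receptor genes had such an overlap under vehicle (against 0.868% of coding genes) and 3 had one under P4 (against 1.80%), VDR, NR1H3 and NR1I3 being the only genes with a POLR3A region above that value in the P4 list.

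Transfer RNA genes, the usual targets of RNA polymerase III, did not lie in any receptor window. The windows held 7 annotated pseudogenes of RNA polymerase III transcripts, such as 5S, 7SL and U6 copies, and no region of any list came within 100 bp of one.

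Regions within 1 kb of a transcription start were the minority at receptor genes in each list. A PR region reached within 1 kb of a start at 13 genes under vehicle (29.5%, against 22.8% of coding genes) and at 20 under P4 (45.5%, against 48.2%). A POLR3A region did so at 14 genes under vehicle (31.8%, against 30.3%) and at 20 under P4 (45.5%, against 32.7%). At equal list length both P4 counts were 13 (19.5% of coding genes for PR and 24.3% for POLR3A). For VDR, HNF4G, NR2F6, NR4A2 and NR0B2, which had no listed start, either end of the gene span stood in. Measured from summits to listed starts, 8.60% of the PR summits under P4 lay within 1 kb (13.4% over coding genes) and 57.5% more than 10 kb away (53.9%). For PR under vehicle these shares were 10.5% (against 15.8%) and 58.6% (against 52.0%). For POLR3A they were 16.1% (against 26.7%) and 45.2% (against 40.9%) under vehicle, and 12.2% (against 18.9%) and 51.7% (against 45.7%) under P4.

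Promoter sequences were listed for 39 of the 44 genes, 87 windows of 250 bp before to 50 bp after a start, and starts of 1 gene can share bases. A region overlapped 6 of the 87 for PR under vehicle and 14 under P4 (6.90% and 16.1%, against 6.36% and 19.1% of 34961 promoters), and 8 and 7 for POLR3A (9.20% and 8.05%, against 13.0% and 12.3%). The palindromic progesterone response element, searched with its central and least fixed bases free, was in 0 of the 87, and in 137 (0.392%) of all promoters. AGGTCA, searched on both strands, was in 16 of the 87 (18.4%), from 11 genes, and in 13.8% of all. The response element is so rare over all promoters that its absence from 87 says little of the family. A match in these windows is only a match of letters.

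Receptors act through coregulators, which read out the bound ligand, and 24 coregulator genes were set beside them. PR regions lay in the windows of 19 of the 24 under vehicle (79.2%, against 55.8% of coding genes) and all 24 under P4 (against 80.1%). POLR3A regions lay in 17 (70.8%, against 53.2%) and 18 (75.0%, against 58.3%). Most of the 24 genes are longer than 100 kb, and long genes have larger windows. Among coding genes of that length, 69.5% and 88.6% had a PR region under vehicle and P4, and 56.2% and 60.5% a POLR3A region. At start sites PR was listed at 5 coregulator genes under vehicle (20.8%, against 22.8% of coding genes). Under P4 it was listed at 19 (79.2%, against 48.2%), where receptor genes stood at 45.5%. The difference between these lists of genes was not tested. LCOR, a ligand-dependent corepressor, held the strongest PR region of them at −log10 q 228 and 330.1, followed under P4 by KAT2B, an acetyltransferase, at 114 and 184. NCOA2 and NRIP1, a coactivator and a corepressor, reached 23.5 and 26.0 under vehicle and 170.3 and 143 under P4. PR regions under P4 alone were found at NCOA1, NCOA7, PRMT1, GPS2 and TRIM24 (20.8%, against 25.0% of coding genes). The window of NCOA7, another coactivator, held 1 POLR3A region in each list, at −log10 q 589 under vehicle and 558 under P4. No receptor gene exceeded 22.2. Coregulator windows were not searched for RNA polymerase III genes, so this region is not assigned to NCOA7 itself.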

How the data were processed

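ChIP-seq peak lists from T47D cells were analysed, 1 list per antibody and treatment. Per the submitters' processing notes, the tools were cutadapt, Bowtie2 and MACS2 and the build was hg38; how the 3 replicates and the inputs entered a list is not given in the sources used here. In each deposited list the authors gave a score, the fold enrichment (a ratio over background), and the −log10 q-value of every region, with no read counts, so the depth per library is unknown and precision cannot be stated. The highest q-value listed was 0.0497. Values per replicate were not analysed.

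Spans came from the RefSeq gene table of GRCh38.p14 (58419 of 59098 genes kept, leaving out alternate sequences) and start sites and promoters from the RefSeq promoter table (39 of 44 receptor genes). Neither gives exons, so whether a region lies in an exon or an intron was not determined. Regions on chromosomes 1 to 22 and X were counted by Python 3.11.15 with numpy 2.4.6, and bedtools 2.31.1 gave the same counts. The counting was also tested on simulated data. Percentages over all protein-coding genes used the same windows; starts were listed for 79.8% of coding genes, and either end stood in for the others. No p-values were computed. A planned motif search around summits was not run, since no genome was used here, and promoters were searched instead. Values are printed for the 5 highest genes of each list, for genes with regions in 1 treatment only, with POLR3A at a start or with no region, for the steroid receptor relatives, and by subfamily for the rest. The genes, gene lists and rules were chosen with earlier results of these data known. The alternatives were other thresholds, windows, overlaps, start distances and gene assignments and lists of equal length.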

Additional observations from a re-analysis of the deposited data

How the results depend on the processing

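No paired analysis was possible because the replicates of a group share 1 list and no test was run, and leaving out replicates was not possible for the same reason. Over all settings, 66 values stayed within 1.5 times the reported count and 50 moved further; values are given as PR vehicle, PR P4, POLR3A vehicle and POLR3A P4 where all moved. At a −log10 q of at least 5, receptor genes with a POLR3A region numbered 9 and 16, and at 10, with the PR vehicle list at 19, they numbered 2 and 3. Of coding genes, 21.1% and 21.3% had a POLR3A region at 5, and 4.82% and 4.25% at 10. PR under vehicle was listed at 25.8% of coding genes at 10. Regions in the windows numbered 71, 204, 16 and 35 at 5 and 42, 105, 2 and 3 at 10. With 50 kb on each side they numbered 234, 677, 209 and 362. Without flanks the POLR3A regions numbered 63 and 126, and at equal list length the P4 lists held 138 (PR) and 112 (POLR3A), at 32 and 28 genes. Genes with PR under P4 alone numbered 2 at equal length (11.0% of coding genes), and with PR under vehicle alone 1 at 10 (0.141%) and 1 at equal length (8.43%). For POLR3A, genes with regions under P4 alone numbered 2 at 10, 3 with 50 kb and 3 at equal length, and under vehicle alone 1 at 5, 1 at 10 and 6 at equal length. The coding shares were 1.52% under P4 alone at 10, and 8.56% at 5 and 2.08% at 10 under vehicle alone. Overlaps of PR with POLR3A were found at 5 genes under vehicle and 13 under P4 at 5, at 0 and 3 at 10, and at 16 under P4 at equal length. At 5 they were found at 5.48% and 12.4% of coding genes. Start sites with PR under vehicle numbered 7 at 5, 4 at 10 and 23 within 5 kb, and under P4 9 at 10 and 13 at equal length. Those with POLR3A numbered 3 and 6 at 5, 1 and 2 at 10, and 13 under P4 at equal length. Coding genes had POLR3A at a start in 10.3% and 9.55% at 5, and in 1.96% and 1.70% at 10. For PR at a start the coding shares were 9.95% at 5 and 4.53% at 10 under vehicle, and 14.7% at 10 under P4. Coregulator genes with PR under vehicle numbered 12 at 10, and with POLR3A 9 and 7 at 5 and 2 and 1 at 10. A higher threshold or a shorter list leaves fewer regions and a wider window more, by construction. Counts of genes with a PR region under P4 stayed within 1.5 times at each setting, as did those with regions counted only for their nearest gene (29, 36, 27 and 33) and the overlaps of at least 50% in both directions (16 and 21). Leaving out the genes without a listed start, a setting chosen after seeing the data, gave 11, 18, 11 and 18 genes with a start-site region. Most POLR3A regions at receptor genes ranked low in their lists, which limits what can be said of any single one.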
